A study of Mus musculus with 6 samples.

Results

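Transcripts of 8 genes around CD40, the BAFF receptors and tumour necrosis factor (TNF) were followed in BCR-ABL1-transformed pre-B cells of the mouse, with and without the adaptor BLNK. The 8 genes were chosen by name: the receptors Cd40, Tnfrsf13b, Tnfrsf13c and Cd27, the ligands Ltb, Lta and Tnf, and the adaptor Traf1. The choice was made with earlier results of these data known. A gene counted as measured where a probe was annotated to that symbol alone, and where several such probes existed the brightest stood for the gene. Each of the 8 genes had 1 such probe, so all 8 of 19938 measured genes were available and no choice between probes was needed.

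Receptors of the TNF superfamily carry no enzyme of their own. When a ligand, usually a trimer on a neighbouring cell or in the fluid, brings receptor chains together, TRAF proteins gather on the receptor tails and pass the signal to the NF-kB factors by a classical and an alternative route. In the B lineage CD40 receives help from T cells, the BAFF receptor (Tnfrsf13c) and TACI (Tnfrsf13b) bind the survival factor BAFF, and the lymphotoxins shape lymphoid tissue. BLNK, also called SLP65, is the scaffold on which enzymes gather below the pre-B cell receptor and so belongs to a different receptor system.

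All 6 samples were labelled as Blnk knockout cells from Balb/c mice aged 4 weeks transformed with BCR-ABL1, the leukemic kinase that the Philadelphia chromosome encodes in acute lymphoblastic leukemia. The pMIG group (3 samples) was transduced with this vector alone and the Blnk group (3 samples) with Blnk, and RNA came from cells sorted for GFP 5 days later. Whether the 3 samples of a group are separate animals, clones or cultures is not in the labels, so a p-value here reflects the spread among arrays that may be technical repeats. Each sample was read on 1 Affymetrix array, and precision is limited by the small number of arrays. Values below are deposited intensities on a linear scale, which may be set side by side for 1 gene across samples but not between genes.

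The arrays were alike in brightness, with medians of 67 to 70. Blnk itself read 972, 926 and 1013 with pMIG and 2714, 3342 and 3022 with Blnk, a 3.11-fold difference (limma adjusted p = 0.000101). The pMIG level is well above the array medians, and the sources used here do not say whether the probe reads the deleted part. The 9 measured B-lineage markers, Igll1 and Pax5 among them, read 926 or more on every array. Their summed level was 33665 to 35099 with pMIG and 36662 to 38011 with Blnk; Blnk and Cd79a (log2 0.31, limma adjusted p = 0.0468) rose and Vpreb1 fell (log2 -0.68, adjusted p = 0.00976), and without these 3 the sums were 26183 to 27226 and 27127 to 27259. Of 12 myeloid markers, 11 lay below the median on all arrays; the summed level was 404 to 418 with pMIG and 515 to 548 with Blnk, and 318 to 348 against 332 to 349 without Mrc1, the only member past the threshold. The 8 dendritic cell markers summed to 319 to 347 and 360 to 410, or 260 to 299 and 260 to 290 without Siglech. The 12 T and NK cell markers summed to 1581 to 1646 and 1052 to 1154, or 597 to 679 and 640 to 715 without Lat. The 8 stromal and endothelial markers summed to 381 to 468 and 382 to 454. Below the median on all arrays lay 7 of the 12 T and NK cell markers, 6 of the 8 dendritic cell markers and 6 of the 8 stromal and endothelial markers. Apart from Mrc1, Siglech and Lat, the brightest markers of these lists were Mpo (44.3 and 44.0), Zbtb46 (67.0 and 63.0), Cd8a (170 and 191), Col1a1 (128 and 117) and Col1a2 (94.7 and 94.7), as mean intensities with pMIG and with Blnk. No marker was listed at 0. The part of these markers in the results below was not tested. In bulk samples, a change in the share of cells that express a gene and a change in its RNA per cell cannot be told apart.

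Receptors for T cell help and for BAFF, and a lymphotoxin, were higher in the cells given Blnk. Cd40 rose 2.42-fold, Ltb 1.90-fold, Tnfrsf13c 1.57-fold and Tnfrsf13b 1.30-fold, whereas Lta, Tnf, Cd27 and Traf1 did not pass the test. In all, 4 of the 8 genes rose and 0 fell in limma's fit over all genes, at a Benjamini-Hochberg adjusted p under 0.05; without adjustment, at p under 0.05, 5 were higher and 0 lower. Of all genes tested, 2.51% rose and 1.1% fell by the adjusted rule, and 8.91% were higher and 6.32% lower by the unadjusted one. This background depends on the scaling of the arrays: 500 genes rose and 220 fell as deposited, 411 and 327 after repeated quantile normalization, and 417 and 291 after median centring. Without adjustment, 1777 higher and 1261 lower became 1369 and 1973 after the first and 1268 and 1773 after the second, so that more genes were lower. Of the 8 genes, 5 were higher and 0 lower without adjustment under both. The median log2 fold change of the 8 genes was 0.33, and that of all genes was 0. In 6 of the 8 genes every Blnk sample lay above every pMIG sample, which held for 11.8% of all genes. The 8 genes, and the lists of related genes below, were chosen with earlier results of these data known. The shares of all genes are therefore not a blind comparison for them. The count of 4 fell to 2 without pMIG replicate 3 and to 2 without Blnk replicate 2, and the 2 genes left were Cd40 and Tnfrsf13c in both cases.

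**Figure D1:**
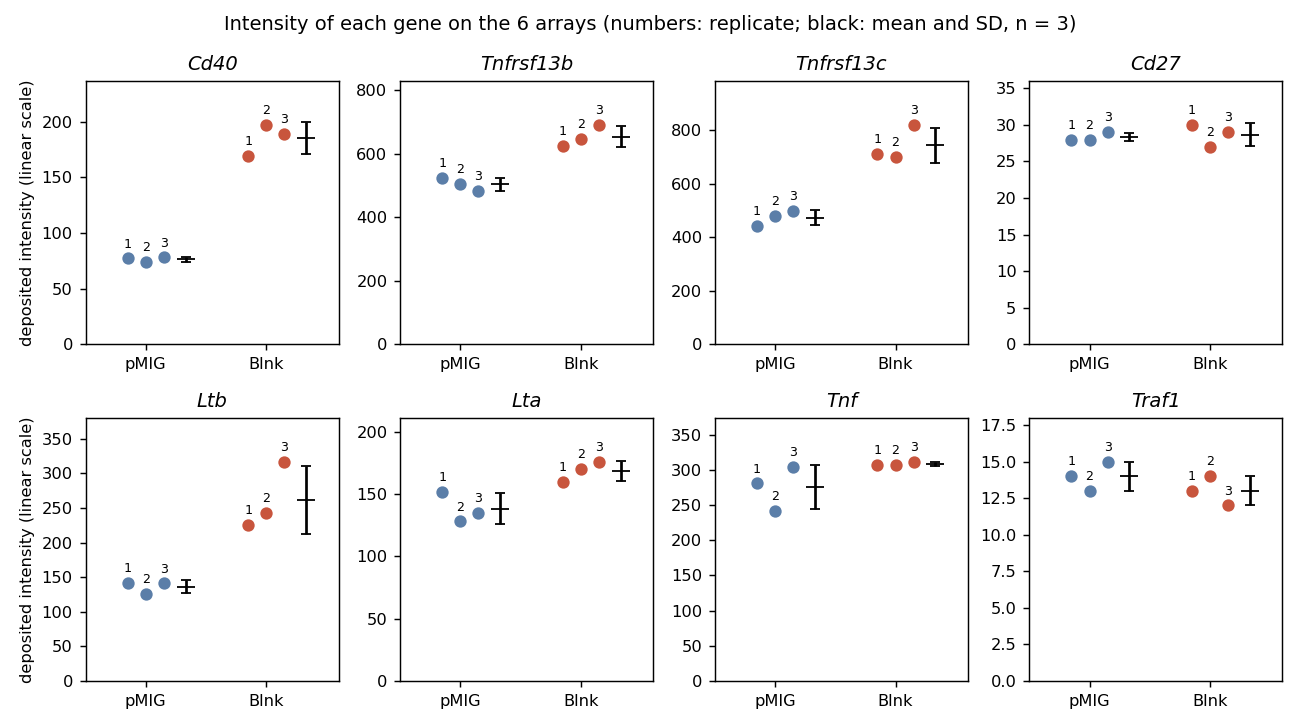
Deposited intensity (linear scale, each axis from 0) of each gene on the 3 pMIG and 3 Blnk arrays; numbers are replicate labels, and the black mark gives the mean and SD (n = 3). Cd40, Tnfrsf13b, Tnfrsf13c, Ltb, Lta and Tnf show no overlap between the groups, while Cd27 and Traf1 overlap.

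Cd40 encodes the receptor through which B cells receive the CD40 ligand of helper T cells. Its intensity was 77, 74 and 78 in the pMIG samples and 169, 197 and 189 in the Blnk samples. The pMIG samples sat just above the array medians and close together, and the Blnk samples were far above all of them. The means were 76.3 ± 2.08 and 185 ± 14.4 (SD, n = 3), a log2 difference of 1.27 (95% confidence interval 1.09 to 1.46; limma adjusted p = 0.000147). By size of rise Cd40 ranked 52 of 19938 genes. It passed in all 15 alternative settings that were run, with adjusted p of at most 0.0059. Its ligand Cd40lg, a product of activated T cells, was dim, at 14, 13 and 14 with pMIG and 14, 16 and 15 with Blnk, and did not pass (log2 0.13, limma adjusted p = 0.493).

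Tnfrsf13c encodes the BAFF receptor, which sustains the survival of maturing B cells. It read 443, 479 and 497 with pMIG and 711, 699 and 819 with Blnk. The groups did not overlap, and Blnk replicate 3 stood above the other two of its group. The means were 473 ± 27.5 and 743 ± 66.1 (SD, n = 3), a log2 difference of 0.65 (95% confidence interval 0.45 to 0.85; limma adjusted p = 0.00718). This rise passed in all 15 alternatives as well, with adjusted p of at most 0.0395.

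Tnfrsf13b encodes TACI, which binds BAFF and its relative APRIL and takes part in class switching and plasma cell responses. It read 523, 504 and 484 with pMIG and 625, 646 and 691 with Blnk, again without overlap but with a narrower gap. The means were 504 ± 19.5 and 654 ± 33.7 (SD, n = 3), a log2 difference of 0.38 (95% confidence interval 0.21 to 0.54; limma adjusted p = 0.0327). This call was the least firm of the 4: it was lost whichever array was left out, with adjusted p of 0.0665 to 0.143, and also after repeated quantile normalization (0.0662) and with the whole probe set in the fit (0.0793). In each of these settings the difference kept its sign.

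The third receptor of the BAFF system, BCMA (Tnfrsf17), which supports plasma cells, was below the array median on every array, at 27, 29 and 21 with pMIG and 29, 33 and 30 with Blnk (log2 0.27, limma adjusted p = 0.374). The transcript of BAFF itself, Tnfsf13b, a cytokine made mainly by myeloid and stromal cells, was 37, 39 and 36 with pMIG and 38, 31 and 36 with Blnk (log2 -0.10, adjusted p = 0.699). Neither passed, and in both genes the groups overlapped. APRIL (Tnfsf13) was not analysed here, because no probe was annotated to its symbol alone.

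Cd27 encodes a costimulatory receptor best known from memory B cells and T cells. It was dim and flat, at 28, 28 and 29 with pMIG and 30, 27 and 29 with Blnk, below the array median on all 6 arrays. The log2 difference was 0.02, with a 95% confidence interval of -0.15 to 0.18 (limma adjusted p = 0.954). At this level a step of 1 whole intensity unit equals 0.05 on the log2 scale, and a dim probe can hide a change. Cd70, which encodes the ligand of CD27, was also below the array medians, at 28, 31 and 25 with pMIG and 27, 23 and 29 with Blnk (log2 -0.09, adjusted p = 0.794).

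The 3 ligand genes Ltb, Tnf and Lta lie next to each other on mouse chromosome 17 in that order in the RefSeq gene table, and of these Ltb passed the test while Tnf and Lta did not. Ltb encodes the membrane anchor of the lymphotoxin heterotrimer. Lta encodes the chain that completes this heterotrimer or is secreted alone. Tnf encodes the inflammatory cytokine itself. Their promoter sequences are shown because the 3 genes are neighbours and because, among the promoters of the 8 genes that could be searched, only that of Ltb held an NF-kB consensus motif. Each is the stretch of 250 bases before the annotated start, 5′ to 3′ on the strand of the gene, from RefSeq on GRCm38.p6, and capitals mark the motif. Tnfrsf13c is added as the receptor whose rise held in every alternative and whose promoter was in the table.
Ltb (chr17:35194257-35194506, plus strand): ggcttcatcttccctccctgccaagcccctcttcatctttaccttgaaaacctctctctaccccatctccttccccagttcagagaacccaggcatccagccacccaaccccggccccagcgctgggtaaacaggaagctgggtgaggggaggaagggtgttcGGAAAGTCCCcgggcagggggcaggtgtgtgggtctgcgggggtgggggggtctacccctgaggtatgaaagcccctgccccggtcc
Tnf (chr17:35202008-35202257, minus strand): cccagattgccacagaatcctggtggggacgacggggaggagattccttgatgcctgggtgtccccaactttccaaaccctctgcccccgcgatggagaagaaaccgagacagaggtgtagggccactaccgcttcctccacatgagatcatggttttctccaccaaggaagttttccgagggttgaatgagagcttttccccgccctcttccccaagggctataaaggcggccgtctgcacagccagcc
Lta (chr17:35205352-35205601, minus strand): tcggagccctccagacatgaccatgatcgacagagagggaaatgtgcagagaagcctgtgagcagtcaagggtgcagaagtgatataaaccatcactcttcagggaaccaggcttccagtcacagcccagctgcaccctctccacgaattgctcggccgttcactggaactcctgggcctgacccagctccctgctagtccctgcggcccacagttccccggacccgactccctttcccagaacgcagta
Tnfrsf13c (chr15:82224381-82224630, minus strand): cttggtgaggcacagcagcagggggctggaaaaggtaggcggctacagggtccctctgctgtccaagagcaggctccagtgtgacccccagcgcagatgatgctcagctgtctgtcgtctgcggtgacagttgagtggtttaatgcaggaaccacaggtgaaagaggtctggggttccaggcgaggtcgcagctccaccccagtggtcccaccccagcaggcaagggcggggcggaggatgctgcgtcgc

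The NF-kB consensus motif, known as the kB motif and 10 bases long, was searched on both strands. It occurred once, as GGAAAGTCCC, beginning 87 bases before the Ltb start. Of the 8 genes, 7 had a promoter in the table (Tnfrsf13b, Tnfrsf13c, Cd27, Ltb, Lta, Tnf and Traf1), and 1 of these 7 held a match. Of all 32851 promoters in the table, 3.9% held one in the same window. A match is a run of letters and not a measured binding site, and its absence from a window of 250 bases says nothing of sites elsewhere.

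Ltb read 142, 126 and 141 in the pMIG samples and 225, 243 and 317 in the Blnk samples. The groups were well apart, and Blnk replicate 3 lay far above the other two of its group. The means were 136 ± 8.96 and 262 ± 48.8 (SD, n = 3), a log2 difference of 0.93 (95% confidence interval 0.62 to 1.23; limma adjusted p = 0.00873). Without Blnk replicate 3 the difference was 0.78 and passed (adjusted p = 0.0157). It did not pass without pMIG replicate 3 (0.0606) or without Blnk replicate 2 (0.053), where the differences were 0.95 and 0.97. The lymphotoxin receptor Ltbr, found mostly on stromal and myeloid cells, was 81, 64 and 81 with pMIG and 75, 66 and 85 with Blnk, with a log2 difference of 0.00097 (95% confidence interval -0.29 to 0.30).

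Lta read 152, 128 and 135 with pMIG and 160, 170 and 176 with Blnk. The groups did not overlap, but the gap between pMIG replicate 1 and Blnk replicate 1 was small. The means were 138 ± 12.3 and 169 ± 8.08 (SD, n = 3), a log2 difference of 0.29 (95% confidence interval 0.09 to 0.49), which did not pass (limma adjusted p = 0.144). In no alternative did it pass, with adjusted p from 0.0538 with dim genes left out to 0.352.

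Tnf read 281, 242 and 304 with pMIG and 307, 307 and 312 with Blnk. The Blnk samples were nearly equal, and pMIG replicate 3 came within a few units of them. The means were 276 ± 31.3 and 309 ± 2.89 (SD, n = 3), a log2 difference of 0.17 (95% confidence interval -0.05 to 0.38; limma adjusted p = 0.458). The interval of Tnf lies below that of Ltb, but the difference between the changes of these genes was not itself tested. The TNF receptors did not pass either: Tnfrsf1a was dim, at 36, 30 and 33 against 32, 39 and 39 (log2 0.15, adjusted p = 0.589), and Tnfrsf1b was level, at 288, 310 and 293 against 313, 291 and 291 (log2 0.01, 95% confidence interval -0.16 to 0.17).

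Traf1 encodes an adaptor that joins TRAF2 on activated receptors and is itself a known NF-kB target in lymphocytes. It lay far below the median on all 6 arrays, at 14, 13 and 15 with pMIG and 13, 14 and 12 with Blnk. The groups overlapped, and the log2 difference was -0.11 (95% confidence interval -0.31 to 0.10; limma adjusted p = 0.649). A step of 1 intensity unit here equals 0.0995 on the log2 scale, so this probe gives almost no resolution. Its partner Traf2 read 394, 366 and 387 with pMIG and 388, 428 and 425 with Blnk (log2 0.11, adjusted p = 0.545). Map3k14, the kinase NIK that starts the alternative NF-kB route, read 157, 168 and 166 against 157, 166 and 150 (log2 -0.05, adjusted p = 0.801). Traf3, which holds NIK down, was not analysed here.

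**Figure D2:**
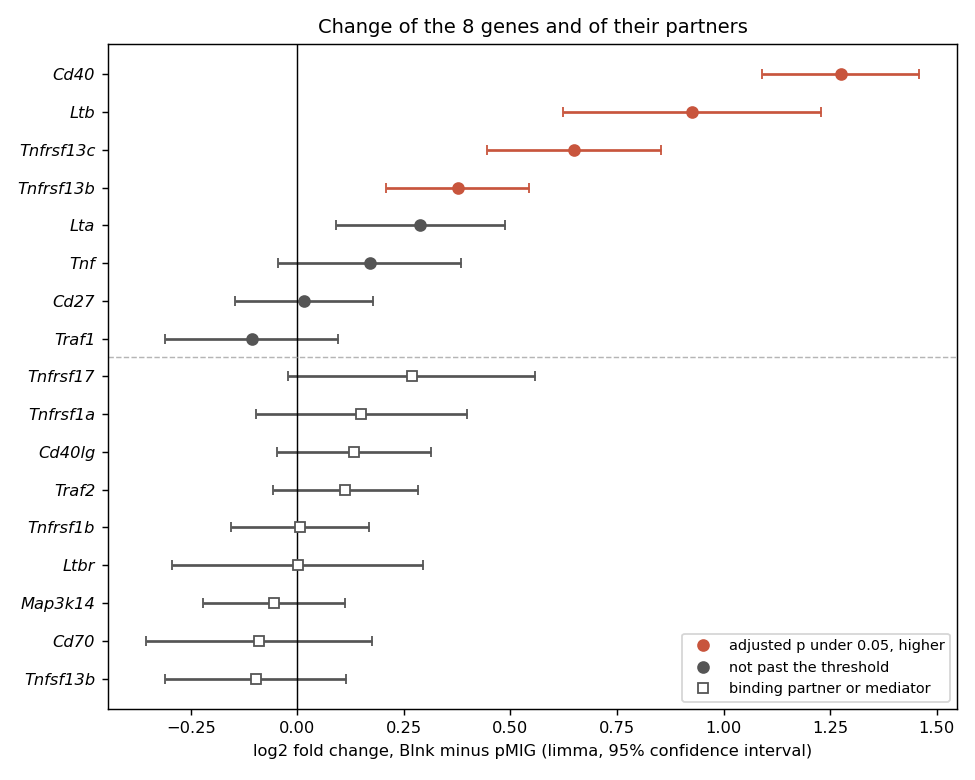
Log2 fold change, Blnk minus pMIG, with the 95% confidence interval of limma (3 samples per group), for the 8 genes (circles) and for 9 ligands, receptors and mediators that act with them (squares). Cd40, Ltb, Tnfrsf13c and Tnfrsf13b passed an adjusted p of 0.05, and each of the 9 partners has an interval that includes 0.

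In the wider TNF superfamily few genes passed the test, 1 receptor in each direction and ligands only upward. Of 24 other receptors, 1 rose and 1 fell, with a median log2 fold change of 0.0014, where 2.51% of all genes rose and 1.1% fell. Relt, a receptor of lymphoid tissue, rose from 263, 279 and 309 to 405, 465 and 429 (log2 0.61, limma adjusted p = 0.00972). Tnfrsf21, the death receptor DR6, fell from 416, 395 and 391 to 311, 296 and 287 (log2 -0.43, adjusted p = 0.015). For Relt, leaving out pMIG replicate 2 (0.0512), Blnk replicate 2 (0.0594) or Blnk replicate 3 (0.0591) ended the call, and Tnfrsf21 passed only without Blnk replicate 1 (0.0363) among the arrays left out.

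Of 13 other ligands measured, 2 rose and 0 fell by limma, with a median of -0.09, where 2.51% of all genes rose and 1.1% fell. Without adjustment, at p under 0.05, 2 of these ligands were higher and 3 lower, and of all genes 8.91% and 6.32% were. The larger rise was that of Tnfsf8, the ligand of CD30, from 41, 52 and 40 to 143, 132 and 148. This log2 difference of 1.68 (limma adjusted p = 0.000213) passed in all 15 alternatives. The receptor of this ligand, Tnfrsf8, stood at 51, 43 and 57 against 50, 57 and 50 (log2 0.06, adjusted p = 0.863). Tnfsf18, the ligand of GITR, was dim and rose from 22, 20 and 24 to 31, 32 and 31 (log2 0.51, adjusted p = 0.0151), passing only without pMIG replicate 3 (0.0319) among the arrays left out, and not with the whole probe set in the fit (0.0543). Its receptor Tnfrsf18 read 137, 133 and 119 against 152, 164 and 170 and did not pass (log2 0.32, adjusted p = 0.0935).

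Among 29 TRAF proteins and other receptor-proximal mediators, 2 rose and 1 fell, with a median of 0.10. Of all genes, 2.51% rose and 1.1% fell. Traf5, an adaptor of CD40 and CD27, rose from 107, 133 and 122 to 167, 168 and 163 (log2 0.47, limma adjusted p = 0.0336). Birc3, a ubiquitin ligase that sits with TRAF2, rose from 237, 247 and 239 to 312, 331 and 332 (log2 0.43, adjusted p = 0.012). Traf4, which is less tied to TNF receptors, fell from 514, 567 and 574 to 438, 431 and 409 (log2 -0.37, adjusted p = 0.0375). Traf5 passed only without pMIG replicate 2 (0.041) and Traf4 only without pMIG replicate 1 (0.0478) among the arrays left out, and Birc3 was lost without pMIG replicate 3 (0.0711), Blnk replicate 2 (0.0633) or Blnk replicate 3 (0.0638). Traf5 (0.0938) and Traf4 (0.0915) were also lost with the whole probe set in the fit, and 4 of the list rose with a trended robust variance prior.

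**Figure D3:**
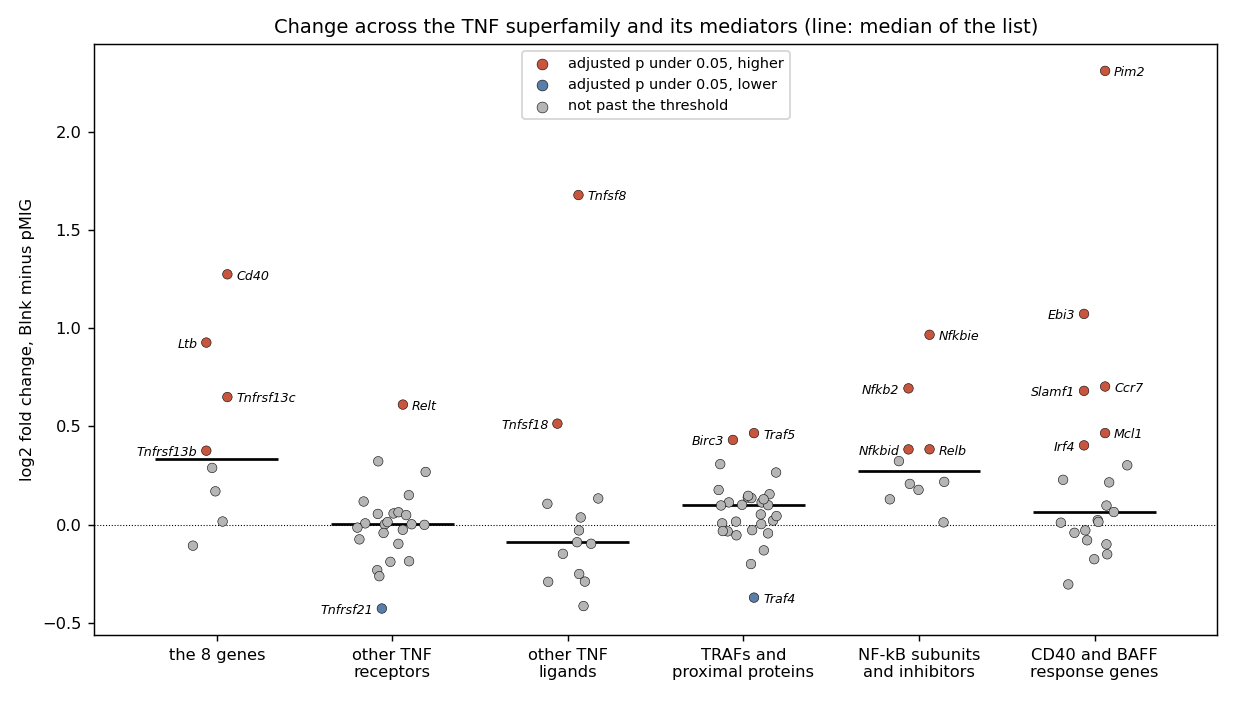
Log2 fold change, Blnk minus pMIG, of each measured gene (points, spread sideways for legibility) in the group of 8 genes and in 5 lists of related genes, with the median of each list as a black line. Red points rose and blue points fell at an adjusted p under 0.05; Pim2 (2.31), Tnfsf8 (1.68) and Cd40 (1.27) stand highest, and most other ligands and receptors lie near 0.

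The NF-kB factors to which these receptors signal rose in part. Of 10 measured subunits and inhibitors, 4 rose and 0 fell by limma (7 higher and 0 lower without adjustment, at p under 0.05), median 0.27. Of all genes, 2.51% rose and 1.1% fell, and without adjustment 8.91% were higher and 6.32% lower. The inhibitor Nfkbie read 288, 290 and 312 with pMIG and 543, 610 and 587 with Blnk, and Nfkb2, the precursor used by the alternative route, 280, 307 and 304 against 479, 487 and 474. Relb, the partner of NFKB2, rose by 0.38 (adjusted p = 0.0352) and the inhibitor Nfkbid by 0.38 (adjusted p = 0.0325). With 1 array left out, Relb never passed (0.0744 to 0.137) and Nfkbid passed only without Blnk replicate 1 (0.0376), whereas Nfkbie and Nfkb2 always did. The count of 4 was therefore 2 with any of the pMIG arrays, Blnk replicate 2 or Blnk replicate 3 left out. It was also 2 after median centring, where Relb (0.0668) and Nfkbid (0.0532) were lost, and 7 with a trended robust variance prior. Relb was lost after repeated quantile normalization too (0.0669), and both with the whole probe set in the fit (0.0894 and 0.0798).

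Of 21 measured genes known to respond to CD40 or BAFF in B cells, 6 rose and 0 fell by limma (7 higher and 1 lower without adjustment, at p under 0.05), with a median of 0.06. The shares of all genes were 2.51% and 1.1%, and 8.91% and 6.32% without adjustment. Pim2, a survival kinase, rose from 427, 392 and 450 to 1753, 2229 and 2352. Ebi3, a cytokine subunit, rose from 49, 46 and 43 to 87, 85 and 122 (log2 1.07, limma adjusted p = 0.00641) and was lost only without pMIG replicate 3 (0.0588). Ccr7 (0.70), Slamf1 (0.68), Mcl1 (0.47) and Irf4 (0.40) made up the rest. With 1 array left out, Slamf1 and Mcl1 never passed, nor did they with the whole probe set in the fit (0.133 and 0.0703), Irf4 passed only without pMIG replicate 2 (0.0483), and Ccr7 was lost without pMIG replicate 1 (0.060), pMIG replicate 3 (0.0768) or Blnk replicate 2 (0.0714). The count of 6 became 2 without pMIG replicate 1, 1 without pMIG replicate 3, 2 without Blnk replicate 2 and 3 without Blnk replicate 1 or Blnk replicate 3. The costimulatory ligands Cd80 (0.21, adjusted p = 0.681) and Cd86 (-0.04, adjusted p = 0.846), named after their values were seen, were dim: Cd80 read 44, 25 and 35 with pMIG and 40, 43 and 35 with Blnk, and Cd86 stayed between 22 and 24. Bcl2, the 1 lower without adjustment, read 713, 761 and 789 with pMIG and 608, 600 and 623 with Blnk (log2 -0.30, limma adjusted p = 0.0617). Bcl2l1 read 245, 267 and 249 against 234, 208 and 232 (log2 -0.18, adjusted p = 0.340). Bcl2 and Bcl2l1 were lower without overlap but did not pass, and were also named after their values were seen.

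Genes whose profile over the 6 arrays was closest to each riser were found from the root mean square difference of log2 values centred on the gene mean. Cd40 was closest to Cd74 (0.060), the invariant chain of class II molecules, Cyth4 (0.070) and Gimap4 (0.077). Ltb was closest to H2-DMa (0.057), a class II chaperone, Klf2 (0.10) and Myadm (0.10). For Tnfrsf13c the closest were Slc37a2 (0.039), Degs1 (0.042) and Tmsb4x (0.045), and for Tnfrsf13b Marchf2 (0.029), Wfs1 (0.031) and Sertad1 (0.031). With 2 groups of 3 arrays, a gene that differed between the groups by a similar amount is close by construction.

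**Figure D4:**
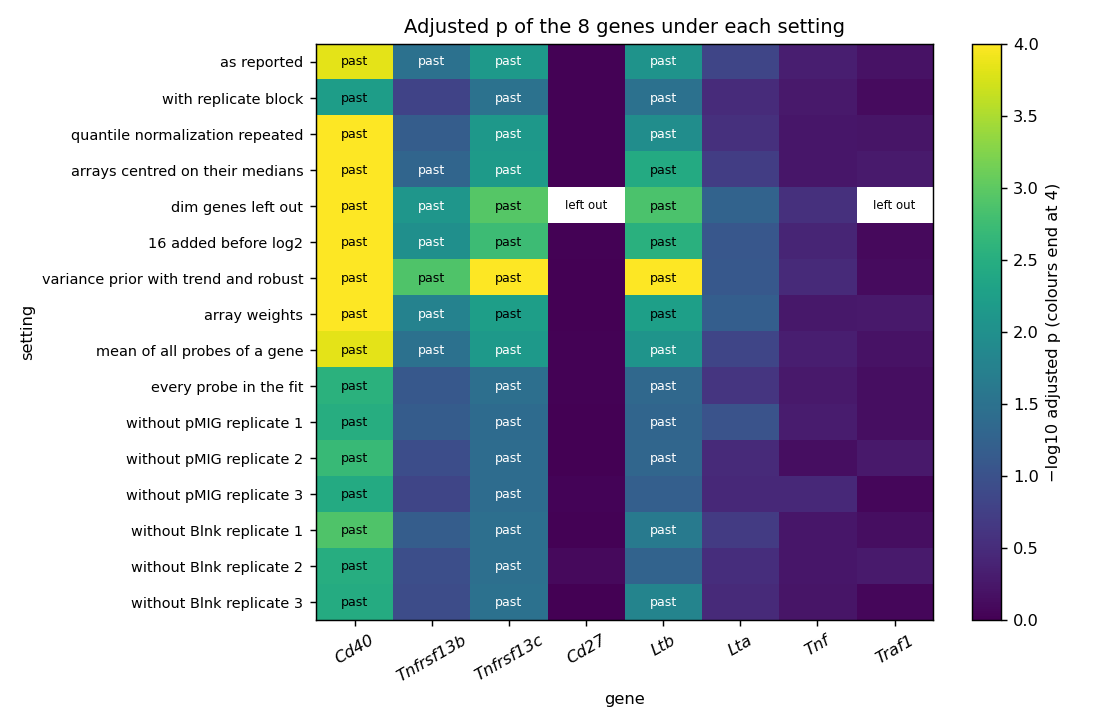
Adjusted p of limma for the 8 genes (columns) as reported and under 15 alternative settings (rows), as −log10 in colour, with "past" where the adjusted p was under 0.05; "left out" marks genes removed as dim. Cd40 and Tnfrsf13c pass in every row, Ltb in all but those without pMIG replicate 3 or Blnk replicate 2, and Lta, Tnf, Cd27 and Traf1 in none.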

How the data were processed

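RNA of 6 samples was hybridised to Affymetrix arrays, and the authors deposited linear intensities, whole numbers between 3 and 22187. The submitters' processing notes name RMA; its version, and how values became linear, are not given in the sources used here. Log2 was taken with nothing added. Of 35421 probes, 21789 had 1 gene symbol in the platform annotation, 1621 had several and 12011 were not listed; only the first kind was used, with the brightest probe per gene (19938 genes). Symbols were checked against the GRCm38.p6 gene table by Entrez identifier (21698 matched). The comparison, Blnk minus pMIG, used R 4.3.3 and limma 3.58.1 (lmFit, then eBayes) with group as the only term, two-sided, with Benjamini-Hochberg adjustment over all 19938 genes and a threshold of 0.05. The fit was also run on simulated data with noise drawn separately for each gene and array, which cannot show effects of array scaling. Of 157 entries in 5 lists of related genes and 5 lists of cell markers, 146 were measured.

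Named were the 8 genes, Blnk, direct partners of the 8 genes, up to 6 genes past the threshold with the smallest adjusted p in each related list, the 3 closest profiles of each riser, and the 2 brightest markers of each other cell type; other names were added after their values were seen. The 8 genes and all lists were chosen with earlier results of these data known. The 15 alternatives included the replicate number as a block, repeated quantile normalization, median centring, and removal of genes under the 40th percentile of level. The others were 16 added before log2, a trended robust variance prior, array weights, averaging of probes, a fit over all probes, and each array left out. A threshold of 0.01 was applied to counts only and is not among the 15. A planned search of protein sequences was not run.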

Additional observations from a re-analysis of the deposited data

How the results depend on the processing

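Of the named genes that were followed through the alternatives, none that passed the test changed direction. The counts over all genes, 500 up and 220 down, became 208 and 81 with the replicate block, 807 and 421 with dim genes left out, 1021 and 518 with the trended robust prior, and 224 and 88 at a threshold of 0.01; 359 fell with 16 added before log2. Leaving out 1 array gave 195 to 304 up and 72 to 133 down. Of the 8 genes, 2 to 3 rose with 1 array left out, and 3 rose at a threshold of 0.01. The 5 lists of related genes held 24, 13, 29, 10 and 21 measured genes. Together they had 15 up and 2 down, where 2.51% of all genes rose and 1.1% fell. They had 7 up with the block and 5 to 9 with 1 array left out. Down counts by limma were 4 after quantile normalization, 4 with 16 added, 4 with array weights and 5 with dim genes left out. They were 5 with the trended robust prior, 0 to 1 with 1 array left out, and 0 with the block. At an unadjusted limma p under 0.05, 9 genes of these lists were lower with the block, where 1020 of all 19938 genes were. Fewer arrays and a block leave fewer degrees of freedom to estimate the spread. The block moved standard errors in both directions (Ltb from 0.130 to 0.115, Cd40 from 0.0791 to 0.0874). Why the counts moved was not tested. With the replicate block, Tnfrsf13b (0.159), Tnfrsf21 (0.0761), Tnfsf18 (0.0846), Birc3 (0.0768), Traf5 (0.111), Traf4 (0.163), Relb (0.133), Nfkbid (0.109), Ccr7 (0.0598), Irf4 (0.0997) and Mcl1 (0.0626) did not pass; no other gene followed in this way lost its call. Whether the replicate numbers pair the samples is not in the labels. Deviations of same-numbered arrays from their group means correlated at -0.187, 0.0578 and -0.12 across genes. Those of differently numbered arrays correlated at -0.21 to 0.283. These values cannot settle the pairing, because deviations from a mean of 3 arrays depend on each other. Dim probes, above all Traf1 and Cd27, limit what can be seen.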
